A study of Homo sapiens with 6 samples.

Results

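The 9 genes described here encode claudins and other proteins of the tight junction: CLDN1, CLDN2, CLDN3, CLDN4, CLDN7, CLDN12, OCLN, TJP1 and TJP3. They were taken by name from a table of read counts for 58735 genes, and 8 of the 9 had enough reads to be tested. The cells were HCT116, an established human colorectal carcinoma line of epithelial origin. One group of 3 libraries carried an empty vector and the other group of 3 libraries overexpressed SETD8, a methyltransferase of histone H4 (current gene symbol KMT5A). According to the labels, cells were transduced with lentivirus and stable clones were selected with puromycin, whereas the design text speaks of transfected plasmids. The number of clones behind each group is not given in the labels; the vector group is recorded as wild type. Whether replicates were separate cultures is not said in the labels, and p-values therefore measure the spread of these samples alone, and that spread may be technical.

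Tight junctions seal the space between neighbouring epithelial cells near their apical side. Claudins are small proteins with 4 transmembrane segments that form the strands of the seal, and the mix of claudins sets which ions and solutes pass. Occludin (OCLN) is another membrane protein of the strands, and the zonula occludens proteins (TJP1 and TJP3 here) are cytoplasmic scaffolds that bind the tails of claudins and tie them to actin. In the colon, CLDN3, CLDN4 and CLDN7 are counted among the sealing claudins, and CLDN2 forms channels for small cations and water.

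Vector libraries held 17187722 to 20471843 counted reads and SETD8 libraries held 17056672 to 18785454. Levels are given as CPM, counts per 1000000 reads of the library, with the totals first corrected for composition by the TMM method. Values of a group are listed in the order of replicates 1, 2 and 3. A gene with 3 counts stood at 0.150 to 0.174 CPM, a floor that covers counting error only. KMT5A was at 46.0, 47.3 and 53.9 CPM in the vector libraries against 65.4, 66.2 and 75.5 CPM with SETD8 (log2 fold change 0.49 with SE 0.10, edgeR adjusted p = 0.0156). Without vector replicate 2 and without SETD8 replicates 1, 2 and 3 the edgeR adjusted p of KMT5A was 0.0965, 0.0661, 0.0579 and 0.0949. Vector replicate 1 lay nearer to the SETD8 libraries than to its own group: its chi-square per degree of freedom over genes was 14.0 and 33.8 against vector replicates 2 and 3, and 11.5 to 13.3 against SETD8 libraries. For 6 of the 9 tight junction genes it was also the vector library closest to the SETD8 mean. The closest was vector replicate 2 for CLDN1 and CLDN4 and vector replicate 3 for CLDN12. The share over all genes is not given here.

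Of the 8 tested tight junction genes, CLDN4, CLDN7 and CLDN12 rose with SETD8 and 0 fell, so 3 of 8 passed in either direction. Among all 14370 genes tested, 7.83% passed (an adjusted p under 0.05 in edgeR), 3.08% as higher and 4.75% as lower. The rises were modest, 1.37-fold for CLDN4, 1.35-fold for CLDN7 and 1.48-fold for CLDN12. The remaining 5 genes, CLDN2, CLDN3, OCLN, TJP1 and TJP3, had negative log2 fold changes that did not pass. The median log2 fold change of the 8 genes was -0.13, beside 0.00047 over all genes tested. In 4 of the 8 the groups did not overlap, against 30.3% of all genes tested. The call of all 3 claudins held without vector replicate 1 or 3 and was lost without vector replicate 2 or any of the SETD8 libraries. Those 4 fits called 72, 11, 155 and 129 genes in all, compared with 1125 for the 6 libraries. Without vector replicate 1 far more genes passed, 3509 of 14715 tested, and calls gained in that fit are to be read against this number. The share of reads from mitochondrial genes also separated the groups, at 5.95%, 6.08% and 7.77% in vector libraries against 4.91%, 5.36% and 4.94% with SETD8, with vector replicate 3 the highest. Its part in the claudin differences was not tested.

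**Figure D1:**
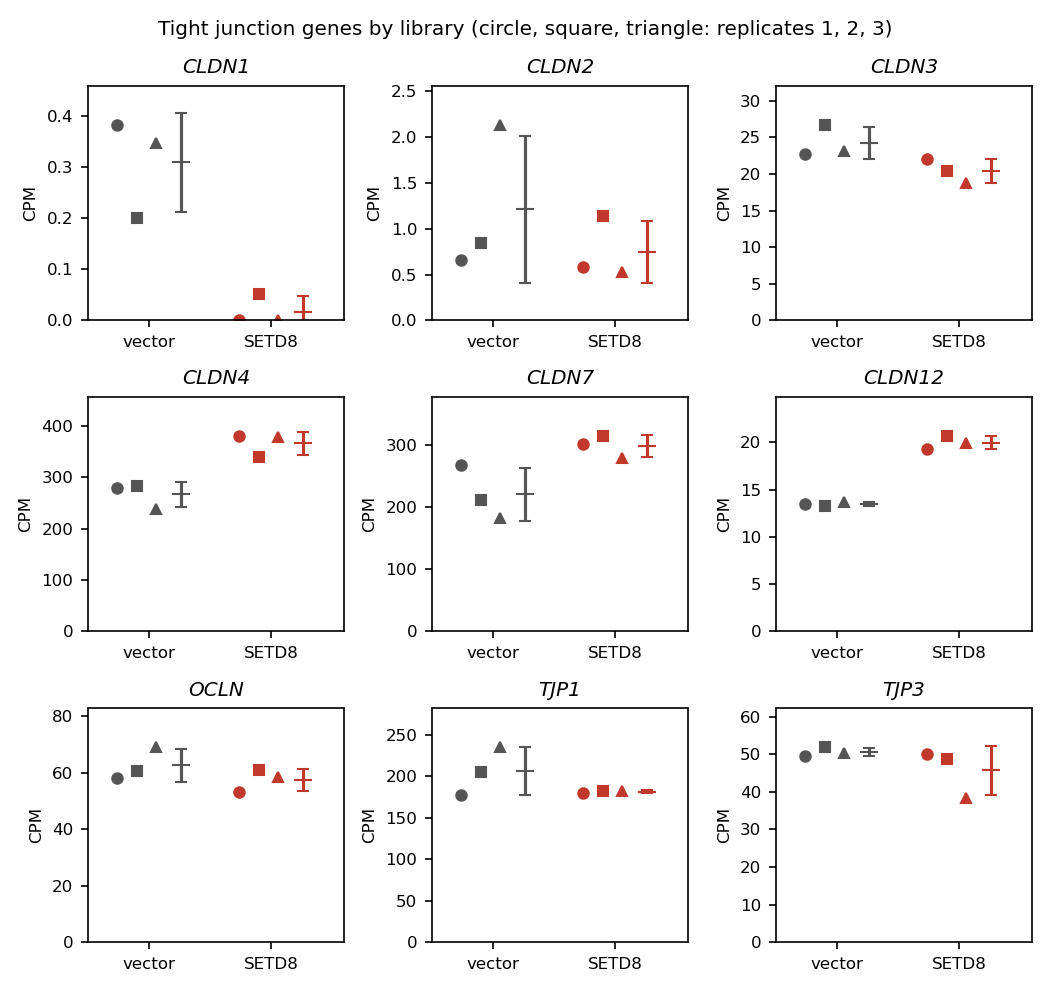
CPM of each tight junction gene in the 3 vector and 3 SETD8 libraries, with 1 point for each library and bars for the mean ± SD (n = 3 each); each axis starts at 0. The SETD8 points of CLDN4, CLDN7 and CLDN12 lie above every vector point, while those of OCLN and TJP3 share their range with the vector points.

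CLDN4 rose with SETD8. It lies on chromosome 7 (73799542 to 73832693, plus strand, GRCh38; ENSG00000189143). Its level was 280, 282 and 238 CPM in vector replicates 1, 2 and 3, compared with 380, 340 and 378 CPM under SETD8 overexpression. The lowest SETD8 library was above the highest vector library. Means were 267 ± 25.1 and 366 ± 22.4 CPM (SD, n = 3 each), a log2 fold change of 0.46 (SE 0.09, 95% interval 0.26 to 0.66, edgeR adjusted p = 0.0156). With 4128 to 5658 reads in each vector library, counting error alone gives a coefficient of variation of 1.42% there, while the observed one was 9.39%. Without vector replicate 2 and without SETD8 replicates 1, 2 and 3, the edgeR adjusted p was 0.0638, 0.0963, 0.0505 and 0.0900, and the log2 fold change was 0.51, 0.43, 0.51 and 0.43.

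CLDN7, whose product is found along the lateral membrane as well as at the tight junction, rose by nearly the same factor but from more scattered vector values. It lies on chromosome 17 (7259903 to 7263983, minus strand; ENSG00000181885). Its level was 267, 211 and 183 CPM in vector replicates 1, 2 and 3, compared with 302, 314 and 278 CPM under SETD8 overexpression. Vector replicate 1 was the highest of its group and stood just under the lowest SETD8 library. Means were 220 ± 43.0 and 298 ± 18.1 CPM (SD, n = 3 each), a log2 fold change of 0.43 (SE 0.12, 95% interval 0.18 to 0.69, edgeR adjusted p = 0.0444). The log2 fold change was 0.59 without vector replicate 1 and 0.32 without vector replicate 3, a range that brackets the value from all 6 libraries. Without vector replicate 2 and without SETD8 replicates 1, 2 and 3, the edgeR adjusted p was 0.165, 0.155, 0.155 and 0.112. The opposite-strand gene ELP5 covers 1.52% of the exon bases of CLDN7, and it had 500 to 1021 reads a library. A same-strand gene, ENSG00000262302, covers 10.79% of those bases and had 0 reads in each library. Of the 50-base words in CLDN7 transcripts, 8.25% also occur in transcripts of ENSG00000262302.

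Promoter letters were compared for E-boxes, which SNAI and ZEB repressors are known to bind, and CLDN7 held the most. The letters searched were CAGGTG, which read CACCTG on the other strand. RefSeq (GRCh38.p14) gave 16 windows of 250 bases upstream of a start site for the 9 genes. The window of the downstream CLDN7 start (chr17:7262479-7262728, minus strand) held 4 matches, and 0.464% of 35116 windows of all genes held 3 or more. It is named as the highest of the 16, so that share, which is for a single window, overstates how rare it is. At least 1 match was present in 17.5% of the windows of all genes. Single matches stood in both OCLN windows, 1 of 4 TJP1 windows and 1 of 2 TJP3 windows, and the windows of CLDN1, CLDN2, CLDN3, CLDN4 and CLDN12 held 0. All 250 bases of that CLDN7 window lie in an exon of a longer CLDN7 transcript in GENCODE 29. The same holds, for exons of their own gene, for the only CLDN4 window and the first windows of OCLN and TJP3. These windows therefore lie inside the annotated gene. Neither the TEAD letters GGAATG nor the CDX-type letters TTTATG were found on either strand in any of the 16 windows, and they are present in 11.9% and 9.64% of all windows. The matches are shown in capitals, 5′ to 3′ on the strand of the gene, to compare their flanks.
CLDN7 stretch 1: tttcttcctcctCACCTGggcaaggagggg
CLDN7 stretch 2: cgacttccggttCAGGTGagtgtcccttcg
CLDN7 stretch 3: tatactCAGGTGcgcccCACCTGtcc
OCLN stretch 1: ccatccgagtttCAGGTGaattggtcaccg
OCLN stretch 2: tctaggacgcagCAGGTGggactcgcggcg
TJP1 stretch 1: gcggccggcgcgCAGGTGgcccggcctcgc
TJP3 stretch 1: gaggaagaggggCAGGTGc

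The first base of the first match in each CLDN7 stretch stood 174, 135 and 20 bases before the start site. The third stretch holds both orientations side by side. A match of letters is a description, and no binding was measured in these samples.

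CLDN12, a claudin that lacks the PDZ-binding tail shared by most of the family, rose from a low level with little scatter in either group. It lies on chromosome 7 (90383721 to 90513402, plus strand; ENSG00000157224). Its level was 13.5, 13.2 and 13.7 CPM in vector replicates 1, 2 and 3, compared with 19.3, 20.7 and 19.95 CPM under SETD8 overexpression. The groups were well separated. Means were 13.5 ± 0.25 and 19.96 ± 0.69 CPM (SD, n = 3 each), a log2 fold change of 0.57 (SE 0.12, 95% interval 0.32 to 0.82, edgeR adjusted p = 0.0158). The observed coefficient of variation was 1.82% in the vector group and 3.44% in the SETD8 group. Counting error alone gives 6.32% at 238 to 265 reads a vector library and 5.21% at 343 to 399 reads a SETD8 library. The spread within both groups therefore understates the sampling noise. CLDN12 shares exon bases on the same strand with GTPBP10 (5.15% of its exon bases) and CDK14 (2.98%), and 12.6% of the 50-base words in its transcripts also occur in transcripts of other genes. GTPBP10 had a log2 fold change of 0.01 (edgeR adjusted p = 0.970) and CDK14 one of 0.06 (edgeR adjusted p = 0.872). Without vector replicate 2 and without SETD8 replicates 1, 2 and 3, the edgeR adjusted p of CLDN12 was 0.0884, 0.0702, 0.0711 and 0.0763.

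CLDN3, the neighbour of CLDN4 on chromosome 7 (73768997 to 73770270, minus strand; ENSG00000165215), did not pass the test and its values leaned the other way. The genes are 29271 bases apart. Its level was 22.8, 26.7 and 23.1 CPM in vector replicates 1, 2 and 3, compared with 22.0, 20.4 and 18.8 CPM under SETD8 overexpression. Every SETD8 library was below every vector library, though the gap between vector replicate 1 and SETD8 replicate 1 was small. The log2 fold change was -0.24, with an SE of 0.12 and a 95% interval from -0.50 to 0.01 (edgeR adjusted p = 0.212). With an offset that removed the trend with transcript length in each library, CLDN3 passed as lower (log2 fold change -0.42, edgeR adjusted p = 0.0389), and its longest transcript, at 1274 bases, is the shortest of the 9 genes.

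CLDN2 and CLDN1 had few reads in both groups. CLDN2 (chromosome X, 106900164 to 106930861, plus strand; ENSG00000165376) had 12, 17 and 37 reads in vector replicates 1, 2 and 3 and 11, 22 and 9 in SETD8 replicates 1, 2 and 3. Its vector mean rested on replicate 3. The log2 fold change of -0.67 (SE 0.51, 95% interval -1.77 to 0.43, edgeR adjusted p = 0.432) became 0.0016 without that library. The coefficient of variation of CLDN2 was 66.3% in the vector group and 45.4% in the SETD8 group, and counting error alone gives 21.3% and 26.7%. CLDN1 (chromosome 3, 190305701 to 190322475, minus strand; ENSG00000163347), a sealing claudin abundant in many epithelia, had 7, 4 and 6 reads in vector replicates 1, 2 and 3 and 0, 1 and 0 reads in SETD8 replicates 1, 2 and 3. It was too low to be tested. Summed over libraries, 17 reads stood against 1, a ratio of SETD8 to vector of 0.0592 with an exact 95% interval of 0.0014 to 0.378 that covers counting error only.

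The strand protein occludin and the zonula occludens scaffolds did not pass. OCLN (chromosome 5, 69492292 to 69558104, plus strand; ENSG00000197822) had 57.9, 60.7 and 69.0 CPM in vector replicates 1, 2 and 3, compared with 53.3, 60.9 and 58.3 CPM in those with SETD8, and the groups overlapped. Its log2 fold change was -0.12, with an SE of 0.10 and a 95% interval from -0.34 to 0.09 (edgeR adjusted p = 0.463). Of the 50-base words in OCLN transcripts, 7.79% also occur in its pseudogene OCLNP1, and reads from those words cannot be placed with certainty.

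TJP1, which encodes ZO-1, lies on chromosome 15 (29699367 to 29968865, minus strand; ENSG00000104067). Its level was 177, 205 and 235 CPM in vector replicates 1, 2 and 3, compared with 179, 182 and 183 CPM under SETD8 overexpression. The SETD8 libraries were nearly identical, and vector replicate 1 was just below all of them. The log2 fold change was -0.18, with an SE of 0.10 and a 95% interval from -0.40 to 0.03 (edgeR adjusted p = 0.261). TJP1 passed as lower without vector replicate 1 (log2 fold change -0.28, edgeR adjusted p = 0.0236) and was at -0.02 (edgeR adjusted p = 0.890) with the length offset. TJP3, which encodes ZO-3, lies on chromosome 19 (3708109 to 3750813, plus strand; ENSG00000105289). It had 49.6, 51.9 and 50.3 CPM in vector replicates 1, 2 and 3, compared with 50.2, 48.7 and 38.3 CPM in those with SETD8. SETD8 replicate 3 alone stood below the rest. The log2 fold change was -0.15, with an SE of 0.11 and a 95% interval from -0.39 to 0.09 (edgeR adjusted p = 0.428).

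**Figure D2:**
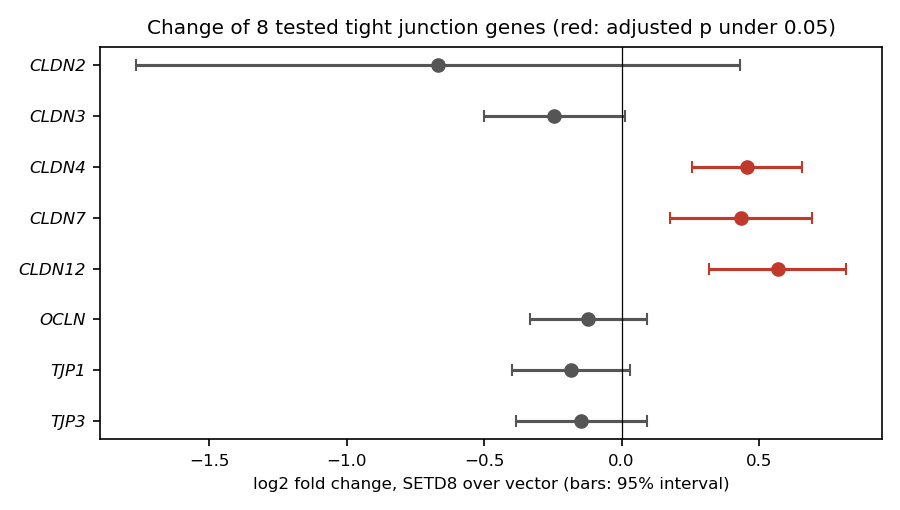
Log2 fold change of SETD8 over vector for the 8 tested genes (points) with 95% intervals (bars); red marks genes with an edgeR adjusted p under 0.05. The intervals of CLDN4, CLDN7 and CLDN12 lie above 0, and those of CLDN2, CLDN3, OCLN, TJP1 and TJP3 include 0.

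Scaled by exon length, CLDN7 and CLDN4 were the most abundant of the 9 transcripts in both groups. CLDN7 stood at 88.5 ± 17.2 CPM per kilobase of merged exons in vector and 119.6 ± 7.25 in SETD8 libraries (SD, n = 3 each), and CLDN4 at 56.7 ± 5.33 and 77.9 ± 4.76. CLDN3 (19.0 ± 1.704 and 16.0 ± 1.25) and TJP1 (18.3 ± 2.55 and 16.1 ± 0.15) followed. Their levels per kilobase overlapped in both groups, and they were the only neighbours in the order that did. Below them came TJP3 (12.0 ± 0.28 and 10.8 ± 1.53), OCLN (9.25 ± 0.85 and 8.50 ± 0.57), CLDN12 (2.00 ± 0.04 and 2.96 ± 0.10), CLDN2 (0.36 ± 0.24 and 0.22 ± 0.10) and CLDN1 (0.084 ± 0.026 and 0.0047 ± 0.0082). With the length of the longest transcript instead, TJP1 stood above CLDN3 in the vector group as well, and the rest of the order did not change.

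Across the 6 claudins, the summed level per kilobase was 187, 168 and 145 in vector replicates 1, 2 and 3 and 222, 218 and 210 in SETD8 replicates 1, 2 and 3. All SETD8 sums were higher than all vector sums. Most of each sum came from CLDN7 and CLDN4, both called higher. This separation therefore restates those calls and adds no support to them. CLDN7 made up 52.8% ± 3.92 of the sum in vector and 55.2% ± 2.40 in SETD8 libraries, and CLDN4 made up 34.2% ± 2.04 and 36.0% ± 2.55 (SD, n = 3 each), with overlapping libraries in both cases. The CLDN3 share was 9.57%, 12.5% and 12.5% in vector replicates 1, 2 and 3 and 7.78%, 7.35% and 7.04% in SETD8 replicates 1, 2 and 3, without overlap. A share falls when the rest of the sum rises, so this is not a separate result for CLDN3. CLDN12 took 1.21% ± 0.17 and 1.37% ± 0.07. The sum leaves out the 18 other claudins. Of these the 3 tested ones, CLDN23, CLDN15 and CLDN9, stood at 1.75, 1.35 and 1.07 CPM per kilobase in vector libraries. With SETD8 they stood at 1.64, 1.83 and 0.71.

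**Figure D3:**
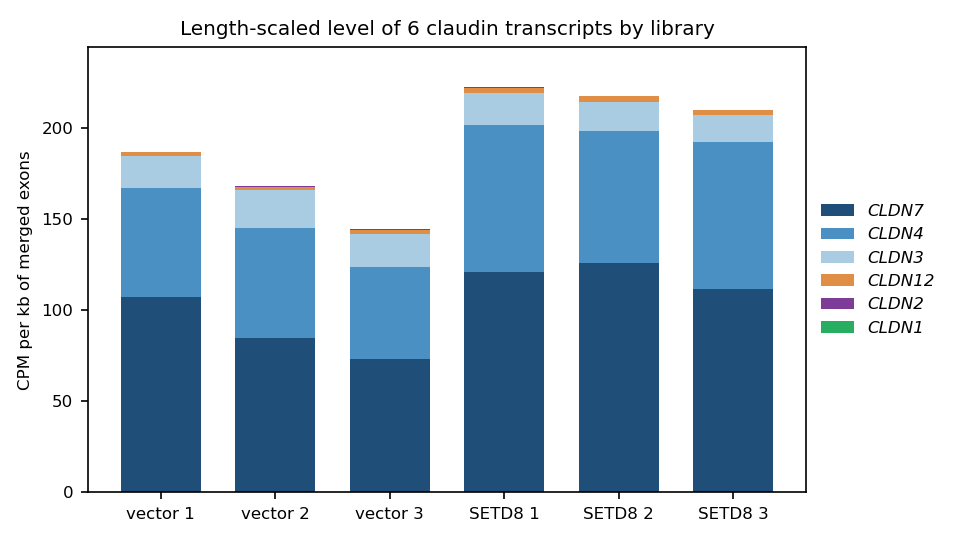
Level of 6 claudin transcripts in CPM per kilobase of merged exons, stacked for each vector and SETD8 library. The stacks reach 145 to 187 in vector and 210 to 222 in SETD8 libraries, CLDN7 and CLDN4 fill most of each, and CLDN1 and CLDN2 are too low to see.

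Ratios within a library do not depend on how libraries are scaled to each other. The reads of CLDN3 relative to those of CLDN4 were 0.0813, 0.0946 and 0.0971 in vector replicates 1, 2 and 3 and 0.0579, 0.0599 and 0.0499 in SETD8 replicates 1, 2 and 3. On the log2 scale this ratio differed by -0.70 between groups. CLDN7 relative to TJP1 was 1.51, 1.03 and 0.778 in vector and 1.68, 1.73 and 1.53 in SETD8 libraries (log2 difference 0.63). CLDN12 relative to TJP1 was 0.0759, 0.0645 and 0.0584 in vector and 0.108, 0.114 and 0.109 in SETD8 libraries (log2 difference 0.74). None of these ratios overlapped between groups, and each had p = 0.1 in a two-sided exact permutation test, whose minimum with these group sizes is that value. CLDN4 relative to CLDN7 overlapped between groups, with a log2 difference of 0.0085 (exact permutation p = 0.9). All 28 pairs of tested genes were computed, those named here were chosen after their values were seen, and the smallest Benjamini-Hochberg adjusted value was 0.233 (exact permutation tests). Of the 28 pairs, 12 did not overlap, all among the 15 that set a called claudin against a gene not called. Their separation restates the calls and adds no support to them.

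**Figure D4:**
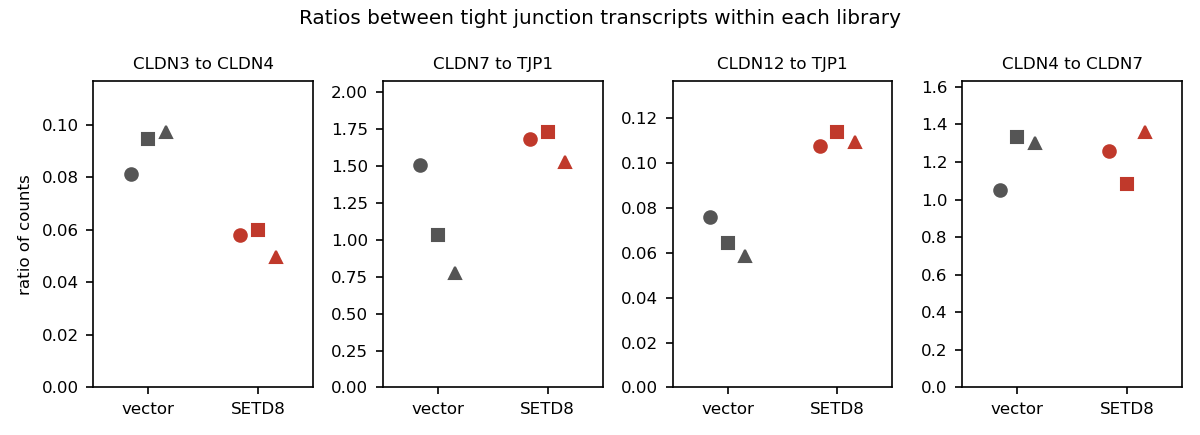
Ratio of read counts between 2 tight junction transcripts in each vector and SETD8 library, for 4 pairs; each axis starts at 0 and each point is 1 library. The ratio of CLDN3 to CLDN4 is lower in all SETD8 libraries, those of CLDN7 and CLDN12 to TJP1 are higher, and that of CLDN4 to CLDN7 overlaps.

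Among the 18 other claudins, 3 were tested and 0 passed, too few to set against the 7.83% that passed over all genes tested. CLDN15, a channel-forming claudin, stood at 3.90 ± 0.51 CPM in vector libraries against 5.29 ± 1.60 with SETD8 (SD, n = 3 each; edgeR adjusted p = 0.279). CLDN9 had a log2 fold change of -0.61 (edgeR adjusted p = 0.315) and CLDN23 one of -0.09 (edgeR adjusted p = 0.844). Another 7 had 0 reads in each library, and all 15 untested ones had means under 1 CPM in both groups.

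In the rest of the junction, 0 genes passed in the membrane, scaffold and polarity lists. Over all genes tested 7.83% passed, and lists of 9 or 10 genes are too short to tell 0 from that share. Of 9 tested membrane proteins (tricellulin family, JAM, angulin and Crumbs genes) 0 passed. ILDR1, an angulin of tricellular contacts, had the smallest edgeR adjusted p there (0.168, log2 fold change -0.76), and the tricellulin relative MARVELD3 (0.26, edgeR adjusted p = 0.233), the Crumbs protein gene CRB3 (0.18, edgeR adjusted p = 0.279) and JAM3 (-0.52, edgeR adjusted p = 0.372) followed. Of 10 tested scaffolds 0 passed. The paracingulin gene CGNL1 was nearest to the threshold, at 3.24 ± 1.01 CPM in vector libraries against 1.69 ± 0.29 with SETD8 (log2 fold change -0.93 with SE 0.30, edgeR adjusted p = 0.0705). PATJ, a multi-PDZ polarity scaffold, followed at 66.9 ± 13.2 and 52.0 ± 2.76 CPM (log2 fold change -0.36 with SE 0.13, edgeR adjusted p = 0.0937). Without vector replicate 1, CGNL1 and PATJ passed as lower (edgeR adjusted p = 0.0299 and 0.0014) and MARVELD3 passed as higher (log2 fold change 0.43, edgeR adjusted p = 0.0125). CGNL1 and PATJ also passed without a minimum on counts (edgeR adjusted p = 0.0405 and 0.0185). MICALL2 (-0.17) and PALS1 (0.10) were farther away (edgeR adjusted p = 0.409 and 0.590). Of 10 tested polarity genes 0 passed, and PARD3B (-0.75), PARD6A (0.34), LIN7A (-0.79) and PARD3 (-0.19) had edgeR adjusted p of 0.179, 0.215, 0.227 and 0.256. PARD3 passed as lower without vector replicate 1 (log2 fold change -0.28, edgeR adjusted p = 0.0342).

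Among signalling and claudin-partner genes, EPCAM, whose product is known to bind CLDN7, stood at 261 ± 12.9 CPM in vector libraries against 262 ± 2.69 with SETD8 (SD, n = 3 each; log2 fold change 0.0033, edgeR adjusted p = 0.985). The RhoA exchange factor gene ARHGEF2 (-0.32, edgeR adjusted p = 0.0813), SPINT1, which encodes an inhibitor of membrane serine proteases (-0.23, edgeR adjusted p = 0.112), and the kinase gene WNK4 (-0.88, edgeR adjusted p = 0.199) did not pass. ARHGEF2 passed as lower without vector replicate 1 or 3 and without a minimum on counts (edgeR adjusted p = 0.0183, 0.0363 and 0.0475), and SPINT1 without vector replicate 1 (0.0330).

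Regulators known to act on epithelial junction genes, most but not all of them transcription factors, gave 1 call. Of 6 repressor genes 4 were tested and 0 passed, and ZEB2 and TWIST2 had 0 reads in each library. SNAI1 stood at 9.53 ± 0.37 CPM in vector libraries against 9.31 ± 1.52 with SETD8 (SD, n = 3 each; log2 fold change -0.03, edgeR adjusted p = 0.924). TWIST1 (0.66), SNAI2 (-0.90) and ZEB1 (-0.64) had means of at most 2.30 CPM in either group, with edgeR adjusted p of 0.168, 0.208 and 0.352. Of 11 tested activator genes, HNF4A, a nuclear receptor gene of intestinal epithelium, fell from 10.7 ± 0.42 CPM in vector libraries to 7.26 ± 0.56 with SETD8 (log2 fold change -0.57 with SE 0.15, edgeR adjusted p = 0.0350) and 0 rose. Over all genes tested 4.75% passed as lower and 3.08% as higher, and 1 call among so few regulators is close to those shares. HNF4A lost its call with the length offset (edgeR adjusted p = 0.0789), without vector replicate 2 (0.124) and without SETD8 replicates 1, 2 and 3 (0.143, 0.126 and 0.0940). KLF5 (-0.35), KLF4 (-0.16) and CDX2 (0.16) did not pass (edgeR adjusted p = 0.142, 0.440 and 0.463), although KLF5 passed as lower without vector replicate 1 (0.00027) and without a minimum on counts (0.0160).

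**Figure D5:**
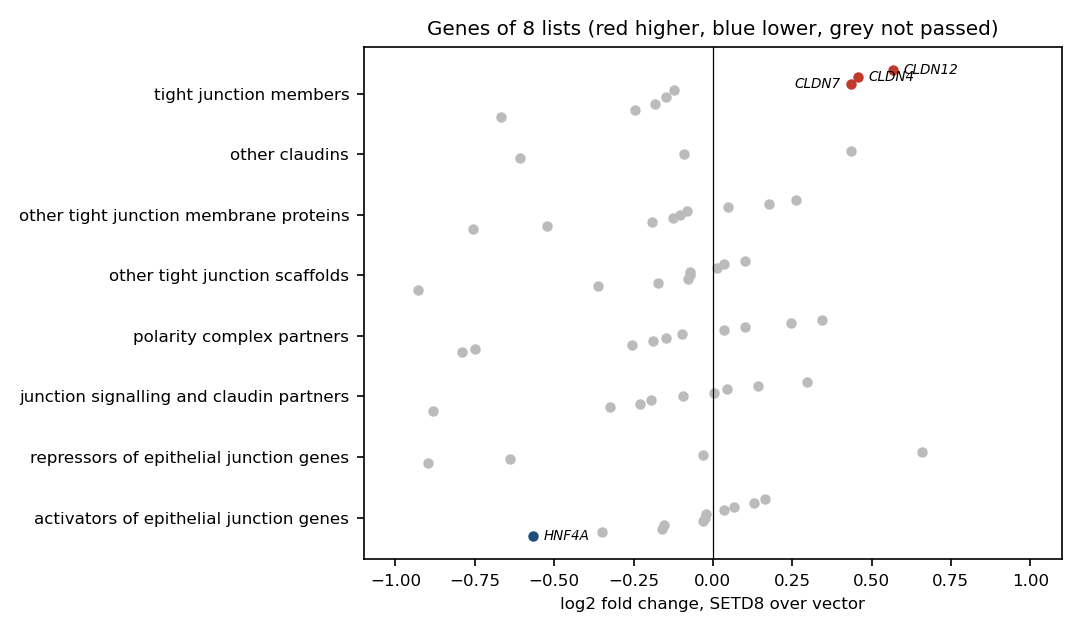
Log2 fold change of SETD8 over vector for tested genes of 8 lists, 1 point per gene, without genes not reported here; red and blue mark genes higher or lower at an edgeR adjusted p under 0.05. CLDN4, CLDN7 and CLDN12 are the red points and HNF4A is the blue one.

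Markers of the epithelial line were high and those of other cell types were low. The summed level of 6 epithelial markers was 10749 to 13253 CPM in vector libraries against 11231 to 12687 with SETD8, although VIL1 had at most 4 reads in a library. The keratin genes KRT8, KRT18 and KRT19 held most of this sum in every library. Of 5 tested epithelial markers, the cadherin gene CDH1 alone passed and was lower with SETD8. It stood at 117 ± 21.5 CPM in vector libraries against 80.7 ± 5.43 (SD, n = 3 each), a log2 fold change of -0.54 (edgeR adjusted p = 0.0218 with all 6 libraries). Its values with a library left out are not given here. KRT8 (-0.09), KRT18 (-0.23), KRT19 (0.15) and EPCAM (0.0033) did not pass, and 4.75% of all genes tested passed as lower. Fibroblast markers summed to 4.80 to 7.203 CPM in vector libraries against 3.50 to 4.83 with SETD8, and COL1A1 alone held 4.52 to 6.22 and 3.28 to 4.65 CPM of this (log2 fold change -0.41, edgeR adjusted p = 0.236). COL1A2 and DCN, from the same list of 6, were at 0. Endothelial markers summed to 1.35 to 2.65 and 1.11 to 2.01 CPM, of which VWF, with 10 to 31 reads a library, held the most in all 6 libraries, and KDR was at 0. Immune markers summed to at most 0.218 and 0.477 CPM with PTPRC, CD3E and TYROBP at 0. In such bulk samples, fewer cells with a transcript and less transcript in each cell cannot be told apart.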

How the data were processed

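Polyadenylated RNA of 3 vector and 3 SETD8 samples was sequenced from strand-marking libraries, per the labels' protocols. The authors deposited a table of read counts per gene, in whole numbers and without normalization. Per the submitters' processing notes, HISAT2, STAR, featureCounts, HTSeq, GRCh38 and hg38 were used, with no role given. The annotation and the use of strand, not given in the sources used here, are unknown, and overlapping genes on opposite strands are uncertain. Columns named NC were taken as the vector group, the only group other than SETD8, and 0 columns belonged to other samples. All 58735 IDs matched GENCODE 29, which gave names, positions, overlaps and exon lengths.

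Genes were filtered with filterByExpr (14370 kept), scaled by TMM and compared by a two-sided robust quasi-likelihood test in edgeR 4.0.16 (with limma 3.58.1 under R 4.3.3), without covariates and adjusted by Benjamini-Hochberg over all genes tested, with a threshold of 0.05. The SE is the log2 fold change divided by the square root of F, and 95% intervals use edgeR's moderated degrees of freedom. CPM of each group is given as mean ± SD. Exon lengths merge all exons of a gene. The test was checked on simulated counts. There, libraries of a group differed only in size and by random draws, so a library like vector replicate 1 was not covered. Ratios were compared by exact permutation tests (scipy 1.17.1). The text names the 9 genes, KMT5A, and of each related list the 4 genes with the smallest adjusted p at a mean of at least 1 CPM plus any that passed. EPCAM, CDH1 and the cell type markers are named outside this rule, after their values were seen, as are genes that overlap a member. Members and lists were chosen with earlier results of these data known. Alternatives were other scalings, filters and tools (DESeq2 1.42.0, limma-voom), KMT5A left out, GC and length offsets (lowess span 0.3), a block for replicate number and the loss of each library in turn. Some genes of the related lists are not reported here.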

Additional observations from a re-analysis of the deposited data

How the results depend on the processing

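Among the 8 tested tight junction genes, 84 of 86 values under settings other than leaving out a library kept their direction and their side of the threshold. The exceptions came with the length offset, under which 1 gene was lower (CLDN3) and OCLN changed sign (log2 fold change 0.0056). With each library left out in turn, 0 to 3 of the genes were higher and 0 to 1 lower. The log2 fold change spanned 0 for CLDN2 (-1.11 to 0.0016), CLDN23 (-0.24 to 0.028) and SNAI1 (-0.11 to 0.097). It was above 0 for CLDN2 and CLDN23 (0.015) without vector replicate 3, CLDN23 without SETD8 replicate 1 and SNAI1 without SETD8 replicate 3, and for SNAI1 also with library totals (0.012). Over all genes, the 682 lower and 443 higher became 10 to 1738 and 1 to 1771 with a library left out, and 1051 and 949 with no low-count filter. Library totals gave 505 lower and 792 higher. DESeq2 gave 678 higher.

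The replicate numbers did not pair the libraries: same-numbered deviations correlated at 0.025, 0.0078 and -0.064, and 2 of 6 libraries correlated best with their own number. With the replicate block, 645 genes were lower and 532 higher, and the same count of 3 tight junction genes was higher. With the block and the GC offset together, 722 genes were higher.

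By longest transcript length, CLDN3 took 9.51% and 6.05% of the claudin sum in vector and SETD8 libraries, CLDN4 31.9% and 33.2%, CLDN7 56.5% and 58.5%, and CLDN12 1.89% and 2.12%. With 17 reads summed over vector libraries and 1 over SETD8 libraries, CLDN1 was too low to test.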
